A study of Mus musculus with 31 samples.

Results

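The UDP-glucuronosyltransferases (UGT), sulfotransferases (SULT) and soluble glutathione S-transferases (GST) of mouse liver were followed across 31 livers of pups aged 14 days. Members were the genes of the deposited table whose symbol begins with Ugt1, Ugt2 or Ugt3, with Sult and a digit, or with Gst, a class letter (a, k, m, o, p, t or z) and a digit, pseudogene symbols left out. Among 43629 genes in the table there were 61 such symbols. The 48 with a mean of at least 1 CPM over all libraries (for this threshold, counts scaled to the library total) are described here. They comprised 16 of 20 UGT, 12 of 18 SULT and 20 of 23 GST genes. The member just inside the threshold was Gsto2 at 1.03 CPM, and the genes just outside it were Ugt1a10 at 0.992 and Sult6b1 at 0.958 CPM. The other 11 below it were Ugt1a2, Ugt1a8, Ugt2a1, Sult1c1, Sult2a7, Sult2b1, Sult3a1, Sult4a1, Gstt4, and additional rows of Gstp1 and Gstp2.

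These enzymes carry out the conjugation stage of detoxification. UGTs transfer glucuronic acid from UDP-glucuronate to bilirubin, steroids, drugs and thyroid hormones, SULTs transfer sulfate from PAPS to steroids, phenols, bile acids and iodothyronines, and GSTs join glutathione to electrophiles. In liver the conjugates leave through bile or blood, and glucuronidation and sulfation are among the routes by which thyroxine (T4) and triiodothyronine (T3) are cleared. The mouse Ugt1a locus makes a family of enzymes by joining alternative first exons to a common set of later exons, so its members share most of the second part of their protein.

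All pups were on a C57Bl/6J background and lacked Dio1 and Dio2, the type 1 and type 2 deiodinases that convert T4 into the receptor ligand T3. Pups heterozygous for a Pax8 deletion, which keep a thyroid, received vehicle and are called control (genotype Dio1KO/Dio2KO/Pax8Het, n = 5). Pups lacking Pax8, a transcription factor without which no thyroid follicles form, have the genotype Dio1KO/Dio2KO/Pax8KO. They formed 4 groups, given vehicle (5 pups), T4 (8 pups), T3 (6 pups) or T3+T4 (7 pups). Injections were given every other day from postnatal day 2 until day 14. Doses are not given in the sources used here, nor is the part of each gene that is deleted. The design asks how T4 acts on the neonatal liver when it cannot be converted by either of these deiodinases. In bulk liver RNA, fewer cells of a type and less RNA per cell cannot be told apart, and the labels name no litters, so p-values measure the spread among these animals.

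Library totals ran from 4383769 to 7158919 counts and were largest in the T3 (mean 6070280) and T3+T4 (6353684) groups, against 5413170 in control, 5297107 in vehicle and 5343109 in T4 livers. Reads were still assigned to Dio1, with mean counts of 891.6 in control, 65.0 in vehicle, 184.9 in T4, 834.3 in T3 and 1187.9 in T3+T4 livers, and mean counts of Dio2 (15.4 to 18.0) and Pax8 (5.8 to 15.0) were low in every group. The 7 hepatocyte markers in the table summed to 2089 to 3383 CPM per library. The 5 stellate cell markers summed to 837 to 892 CPM in control and 525 to 744 in vehicle livers, without overlap. They summed to 592 to 863 in T4, 447 to 830 in T3 and 687 to 805 in T3+T4 livers. Sums of the cholangiocyte, Kupffer, endothelial, erythroid, neutrophil and intestine lists overlapped between control and vehicle livers. The 8 pancreatic acinar markers averaged at least 5 CPM in 1 control, 2 vehicle and 3 T3+T4 libraries, and the 7 skeletal muscle markers in 3 T4, 2 T3 and 2 T3+T4 libraries. Their summed levels reached 74.1 CPM for acinar markers in control, 191 in vehicle and 175 in T3+T4 livers, and for muscle markers 212 in T4, 339 in T3 and 78.5 in T3+T4 livers. By Xist and 4 Y-linked genes the livers were from 1 male and 4 females in control, 3 and 2 in vehicle, 6 and 2 in T4, 1 and 5 in T3, and 5 and 2 in T3+T4, and vehicle animal 67, T4 animal 54, T3 animal 68 and T3+T4 animal 79 differed from the sex in their labels. Of the animals numbered 54 to 85 in the labels, only 1 is a control and 2 are vehicle animals.

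Ugt1a9, Ugt1a5 and Sult5a1 are shown with the 250 bases before their transcription start, because the first pair are exons of 1 locus that followed different groups and Sult5a1 separated the T3 and T3+T4 livers from the vehicle and T4 livers. They were chosen after their values were seen. Ugt1a9 and Ugt1a5 are alternative first exons of the same locus on the plus strand of chromosome 1, and Sult5a1 lies on the minus strand of chromosome 8. The windows shown are chr1:88070529-88070778, chr1:88165762-88166011 and chr8:123158281-123158530, in that order (RefSeq, build GRCm38.p6). Sequences are written 5′ to 3′ on the gene's strand, with exact matches to the motifs searched in capitals.
Ugt1a9: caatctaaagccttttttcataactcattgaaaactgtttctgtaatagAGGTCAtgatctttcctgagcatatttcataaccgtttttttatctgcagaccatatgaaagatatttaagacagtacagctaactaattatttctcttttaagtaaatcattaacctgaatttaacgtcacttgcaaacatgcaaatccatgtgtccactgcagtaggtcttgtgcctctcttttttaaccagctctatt
Ugt1a5: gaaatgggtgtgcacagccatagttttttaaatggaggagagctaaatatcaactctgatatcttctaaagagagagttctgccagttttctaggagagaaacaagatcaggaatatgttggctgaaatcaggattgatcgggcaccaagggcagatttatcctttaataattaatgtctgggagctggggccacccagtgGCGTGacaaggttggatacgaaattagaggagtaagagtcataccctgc
Sult5a1: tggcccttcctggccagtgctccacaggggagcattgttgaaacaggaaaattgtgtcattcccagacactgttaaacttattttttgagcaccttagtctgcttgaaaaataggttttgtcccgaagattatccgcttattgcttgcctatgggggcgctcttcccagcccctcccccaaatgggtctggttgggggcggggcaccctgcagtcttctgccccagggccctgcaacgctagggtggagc
The last 35 bases of the Sult5a1 window lie inside the span that GENCODE M21 gives that gene. The motifs, searched on both strands, were the thyroid hormone response element DR4 (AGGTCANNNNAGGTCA), the single hexamer AGGTCA, which every DR4 contains, the antioxidant response element core TGACNNNGC and the xenobiotic response element core GCGTG. The Ugt1a9 window held 1 hexamer, beginning 201 bases before the start, the Ugt1a5 window held 1 xenobiotic core, beginning 49 bases before the start, and the Sult5a1 window held no match. Promoters were found for 42 of the 48 members (51 promoters), and 0 of them held DR4, which 0.0152% of 32851 promoters hold. The hexamer was in 10 member promoters (19.6%, against 14.0% of all), the antioxidant core in 3 (5.88%, against 10.2%) and the xenobiotic core in 8 (15.7%, against 28.2%). A match is a run of letters, not a shown binding site, and no match says only that these letters are not in the window.

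The 48 members spanned levels from 0.442 to 170.3 CPM per kb of exon in no other gene on the same strand, averaged over all libraries. The highest of each family were Sult2a1, a hydroxysteroid and bile acid sulfotransferase, at 170.3 CPM per kb, Ugt2b36, a steroid glucuronosyltransferase, at 148.1 and Gstm1, a mu class transferase, at 101. Among UGTs, Ugt2b5 (137.5 CPM per kb), Ugt2b34 (111.5), Ugt2b1 (109.1) and Ugt3a2 (100.5) followed, then Ugt1a1, the bilirubin glucuronosyltransferase (83.3, over only 913 such bases), Ugt2a3 (75.9), Ugt1a6b (62.1), Ugt1a9 (50.1), Ugt2b35 (35.3), Ugt2b38 (35.1), Ugt3a1 (24.6) and Ugt1a6a (17.5). Ugt2b37 (5.19), Ugt1a5 (2.62) and Ugt1a7c (1.31) were the low UGT members. Whether counts of the Ugt1a members include reads of their shared exons is not stated. If they do, the Ugt1a levels per kb are too high, since counts were divided by unshared bases only, so their ranks are uncertain. For Ugt1a1 only 385 bases lie in no other gene on either strand. Whether counting used the strand is not given, so its level per kb is uncertain for this reason too. Among SULTs, Sult2a2 stood at 166.6 CPM per kb, the phenol sulfotransferase Sult1a1 at 127.0, Sult1d1 at 116.9, Sult2a5 at 109.2, Sult2a6 at 57.1, Sult2a3 at 30.8, Sult1c2 at 23.1, Sult2a4 at 17.9 and Sult1b1 at 17.6. The estrogen sulfotransferase Sult1e1 (3.78) and Sult5a1 (1.86) were the low SULT members. Among GSTs, the theta class Gstt1 stood at 89.5 CPM per kb, the zeta class Gstz1, which acts in tyrosine breakdown, at 60.5, Gsta3 at 58.5, Gstm7 at 47.2, Gsto1 at 44.2, Gstk1 at 42.7, Gsta4 at 42.6, Gstp1 at 37.5, Gstp2 at 34.9, Gstm4 at 34.4, Gstm2 at 25.8 and Gstm3 at 21.9. Below them were Gstt3 at 15.4, Gstm6 at 14.8, Gstt2 at 12.9, Gstm5 at 11.8, Gsta2 at 3.91, Gsta1 at 2.22 and Gsto2 at 0.442. The plot of levels per kb shows that the group means of most members lay on top of each other, and that the members with wide gaps between groups were mostly those of low level.

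**Figure D1:**
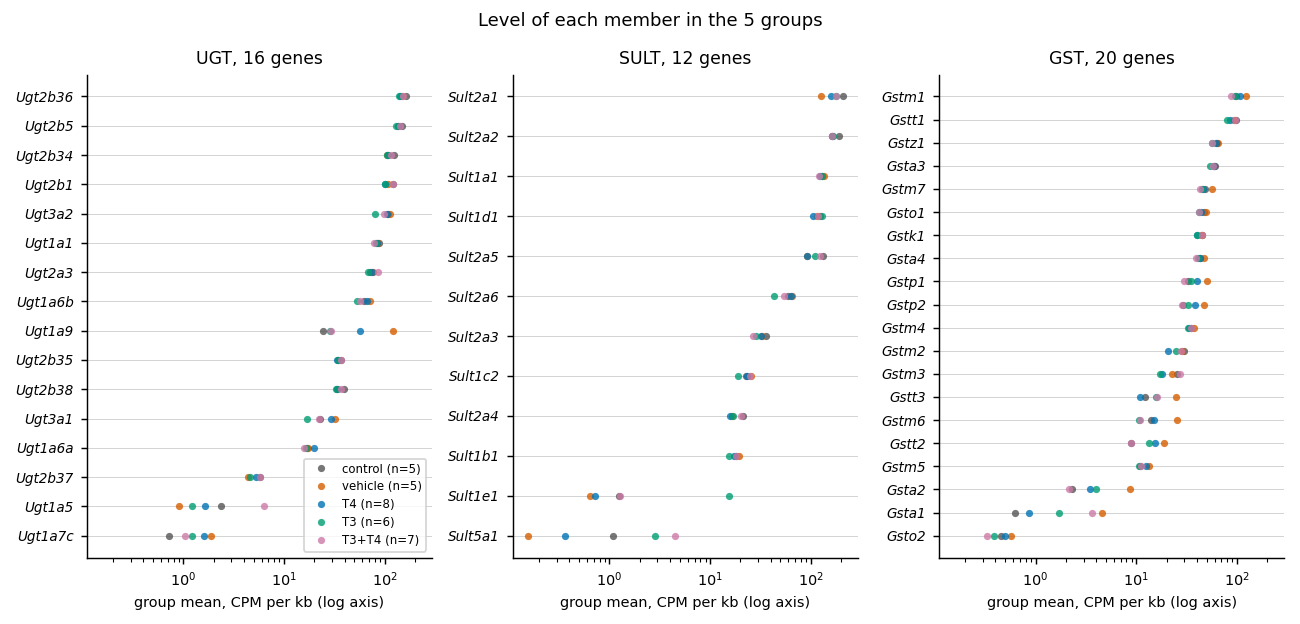
Group mean of each of the 48 members in CPM per kb of exon in no other gene on the same strand, on a log axis, by family; each dot is 1 of the 5 groups. Ugt1a9, Ugt1a5, Sult1e1, Sult5a1 and Gsta2 show wide gaps between groups, while Ugt2b36, Sult2a2 and Gsta3 do not.

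Summed over its members, no family separated the groups. The 16 UGT members summed to 2410 ± 102 CPM in control (SD, n = 5), 2360 ± 219 in vehicle (n = 5), 2256 ± 178 in T4 (n = 8), 2057 ± 225 in T3 (n = 6) and 2328 ± 191 in T3+T4 livers (n = 7). The 12 SULT members summed to 1202 ± 103, 1043 ± 90.1, 1028 ± 119, 1131 ± 144 and 1120 ± 97.1 CPM, and the 20 GST members to 1520 ± 100, 1747 ± 272, 1512 ± 196, 1408 ± 169 and 1435 ± 95.5 CPM, in the same order. The ranges of the single libraries overlapped between all groups in each family. Counts in the table level off near 2 per exonic base, and Sult2a1 (48.3% of that ceiling), Sult2a2 (47.0%), Ugt2b36 (41.8%) and Ugt2b5 (38.9%) came nearest to it. These percentages are means over all libraries. Single libraries of other members came as near, among them Sult1d1 (up to 53.8%), Sult1a1 (50.1%) and Ugt1a9 (42.8%). Counts near the ceiling can understate a change. With counts corrected for it, the log2 difference between vehicle and control was 2.54 for Ugt1a9, in place of 2.31. For Sult2a1 it was -0.95, in place of -0.70.

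Of the 47 members that passed the filter on low counts (Gsto2 did not), 17 differed among the 5 groups (36.2%, against 15.7% of all 17057 genes tested, edgeR's quasi-likelihood test, adjusted p under 0.05). Vehicle and control livers differed in 12 members, 6 higher and 6 lower in vehicle (25.5%, against 9.63% of all genes, 4.92% higher and 4.71% lower). T4 against vehicle gave 0 calls, against 0.41% of all genes (0.211% higher and 0.199% lower), with 10 members at an unadjusted p under 0.05 (12.7% of all genes) and 2 called by DESeq2 (1.38%). T3 against vehicle gave 9, of which 3 were higher and 6 lower (19.1%, against 6.77% of all genes, 3.53% higher and 3.24% lower), and T3+T4 against vehicle gave 14, of which 5 were higher and 9 lower (29.8%, against 15.8% of all genes, 7.33% higher and 8.45% lower). These 4 comparisons share the same 5 vehicle livers. Median log2 fold changes of the members were 0.04, -0.10, -0.19 and -0.10 in that order, against 0.01, 0.00, 0.00 and 0.00 over all genes. Over all pairwise comparisons 20 members were called at least once, and 28, Gsto2 among them, never.

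**Figure D2:**
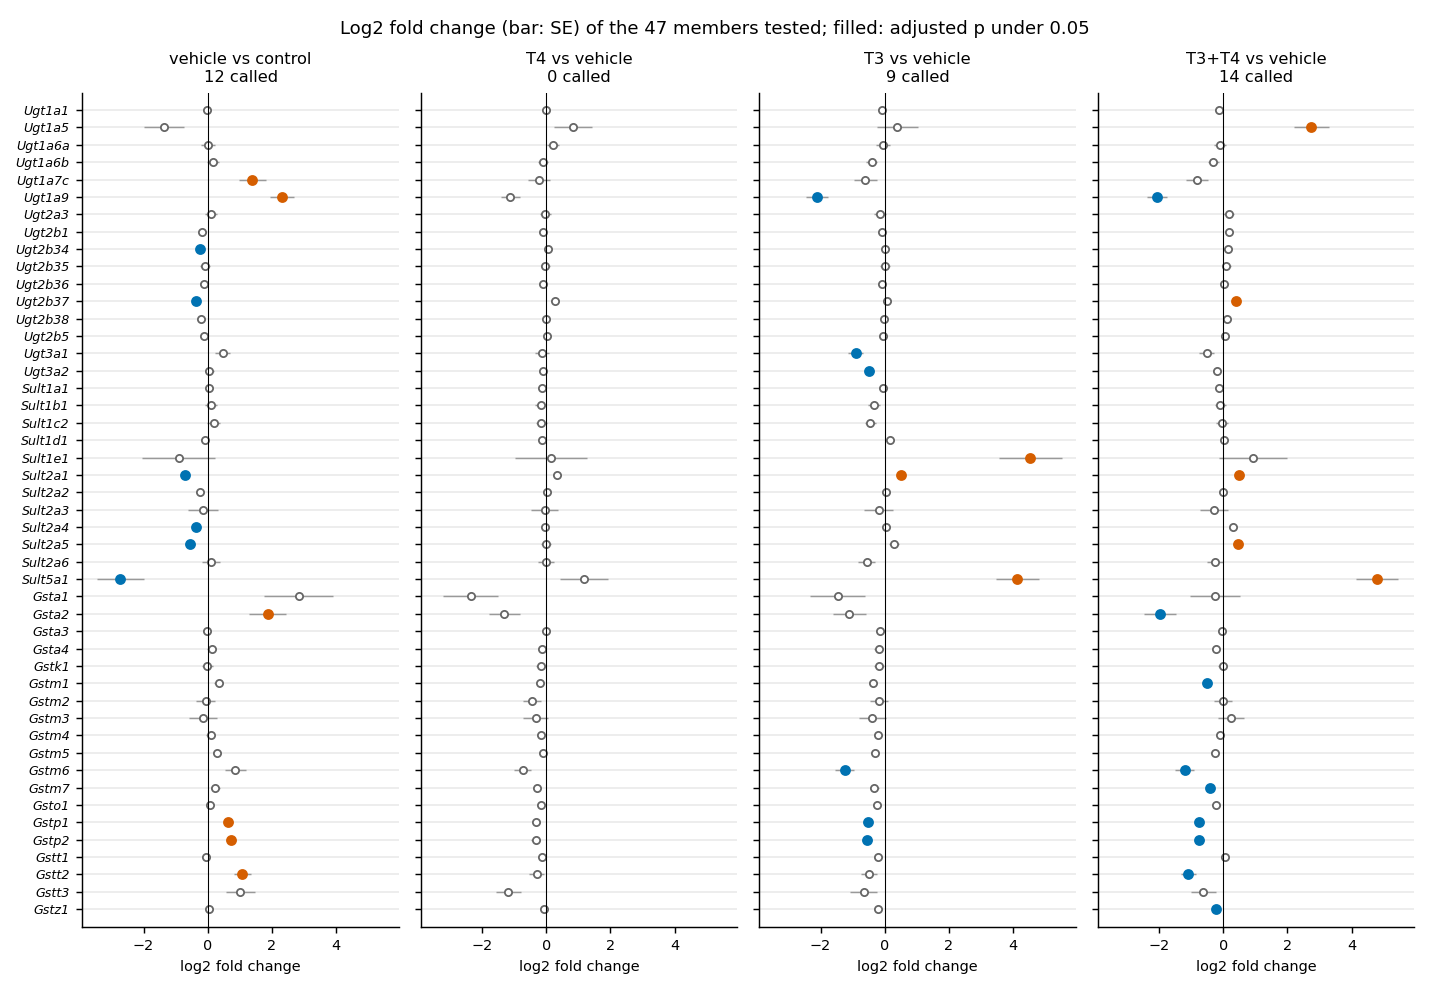
Log2 fold change of the 47 members tested in 4 comparisons, with SE as bars; filled dots passed an adjusted p of 0.05 in edgeR (orange higher, blue lower), open dots did not. Ugt1a9 is filled on opposite sides in the first panel and the last 2, as are Sult5a1 and Sult2a1, with Gstt2 in the first and last panels among others.

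The UGT member with the smallest adjusted p among the 5 groups was Ugt1a9 (adjusted p = 2.57e-05 with edgeR, ENSMUSG00000090175, chromosome 1, 88070800 to 88218997, mm10), which glucuronidates phenols and fatty acids. In control livers it measured 15.4, 16.6, 19.8, 25.6 and 29.7 CPM, and in vehicle livers 87.4, 99.9, 104, 105 and 138. Across the other groups, with the lowest, median and highest value of each, it measured 30.5, 49.0 and 70.5 in T4, 6.89, 23.7 and 47.6 in T3, and 10.9, 29.9 and 36.7 CPM in T3+T4 livers. Every vehicle liver thus lay above every liver of the other 4 groups, and every T4 liver lay above every control liver. The rise in vehicle livers was 4.97-fold (log2 fold change 2.31 ± 0.37, SE, adjusted p = 0.000184 with edgeR). Against vehicle it fell 4.31-fold after T3 (-2.11 ± 0.34, adjusted p = 0.000397) and 4.18-fold after T3+T4 (-2.06 ± 0.32, adjusted p = 7.43e-05). After T4 the groups did not overlap, but the log2 fold change of -1.12 ± 0.30 (95% interval -1.74 to -0.49) did not pass with edgeR (adjusted p = 0.0919). It passed with DESeq2 (adjusted p = 0.0498) and in a fit of these 2 groups alone (adjusted p = 0.00921). Ugt1a9 was higher in T4 than in control livers (1.2 ± 0.34, adjusted p = 0.0468). That call was lost without any 1 control animal (42, 47, 49, 50 or 59), vehicle animal 2019, 37, 38 or 55, T4 animal 46, 54, 58, 69, 70 or 71 or T3+T4 animal 77 or 79 (adjusted p up to 0.14), and with sex as a covariate (0.102). It was lower after T3+T4 than after T4 (-0.95 ± 0.30, adjusted p = 0.043), a call lost without T4 animal 46, 54, 58, 69, 70 or 71 or T3+T4 animal 72, 78, 79, 84 or 85 (adjusted p up to 0.0953).

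The other first exons of the same locus did not follow Ugt1a9 as a block. Ugt1a7c, a low member, rose from 1.37 ± 0.374 CPM in control (SD, n = 5) to 3.61 ± 0.985 in vehicle livers (n = 5), a log2 fold change of 1.39 ± 0.41 (adjusted p = 0.0302 with edgeR). Removing control animal 42, 47 or 49, or one of vehicle animals 37 and 55, ended the call (highest adjusted p 0.0731), and Ugt1a7c was not called against vehicle after any hormone. Without T3+T4 animal 78, at 5.24 CPM the highest of its group, it was lower after T3+T4 than in vehicle livers (-1.27, adjusted p = 0.00597) and than in T4 livers (-1.05, adjusted p = 0.0204). Ugt1a5 (ENSMUSG00000089943, 88166012 to 88218997) measured 0.762, 1.18, 2.03, 3.12 and 3.55 CPM in control and 0.202, 0.547, 0.763, 1.27 and 1.29 in vehicle livers. Lowest, median and highest levels of Ugt1a5 were 0.378, 1.19 and 4.07 in T4, 0.484, 1.13 and 1.84 in T3, and 1.21, 5.57 and 12.7 CPM in T3+T4 livers. In 6 of the 7 T3+T4 livers Ugt1a5 stood above all vehicle and all T3 livers, the exception being animal 78. Ugt1a5 was higher after T3+T4 than in vehicle livers (2.75 ± 0.55, adjusted p = 0.00113) and than after T4 (1.93 ± 0.43, adjusted p = 0.00544). Against T3 the log2 fold change was 2.37 ± 0.48 with an adjusted p of 0.0502 in edgeR and 0.00291 in DESeq2. T3 alone gave a log2 fold change of 0.39 against vehicle (95% interval -0.92 to 1.70).

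The remaining members of the locus were not called in any comparison. Ugt1a1 measured 79.9 ± 2.98, 78.2 ± 6.47, 77.3 ± 8.40, 74.5 ± 6.27 and 71.4 ± 4.01 CPM (SD) in control, vehicle, T4, T3 and T3+T4 livers. Its log2 difference between vehicle and control was -0.03 (95% interval -0.19 to 0.12), which bounds a change of its counts between these groups to a small size. Protein and activity of this bilirubin enzyme were not measured. Ugt1a6a and Ugt1a6b, which act on small phenols, measured 36.3 ± 8.70 and 59.0 ± 7.80 CPM in control and 36.7 ± 5.32 and 66.6 ± 16.6 in vehicle livers. Below the threshold of 1 CPM, Ugt1a10 measured 0.490 ± 0.226 in control and 1.61 ± 0.684 in vehicle livers, and Ugt1a8 measured 0.189 ± 0.0131 and 0.786 ± 1.01 CPM. By the library total 1 count is worth 0.14 to 0.228 CPM. All these genes share their later exons, and how reads of shared exons were assigned is not stated, so the split of reads among the first exons is uncertain.

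**Figure D3:**
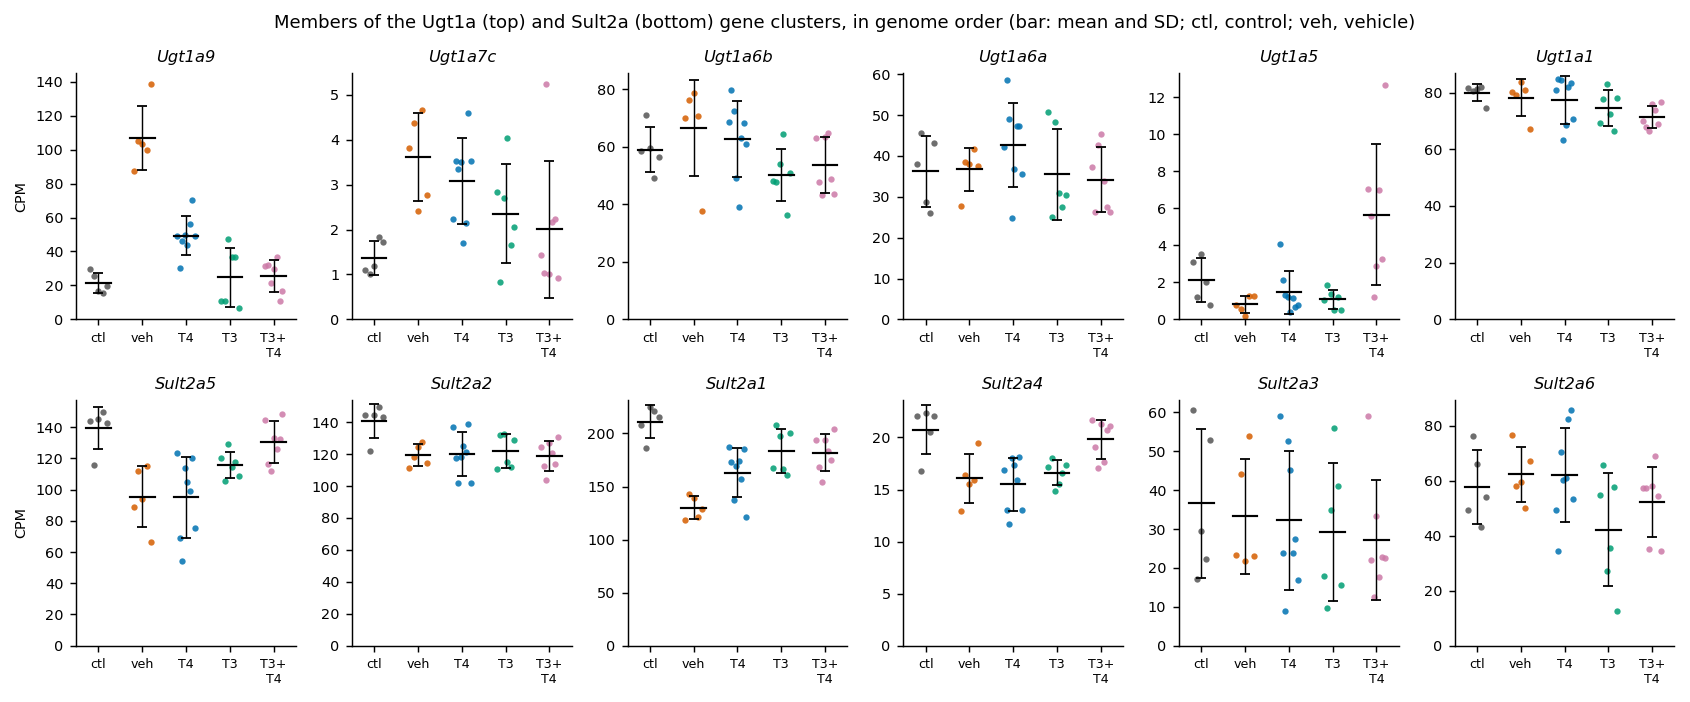
CPM in each liver (dots) with mean and SD (bars) for the 6 Ugt1a members (top) and the 6 Sult2a members (bottom), each row in genome order, by group. Ugt1a9 separates the vehicle livers from all others and Ugt1a5 the T3+T4 livers from most others, while Ugt1a6a and Ugt1a1 overlap throughout; in the lower row Sult2a1 is lowest in the vehicle livers.

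The Ugt2b members, which glucuronidate steroids and drugs and lie side by side on chromosome 5, changed little. Ugt2b36 measured 295, 341, 343, 350 and 358 CPM in control and 243, 300, 311, 329 and 357 in vehicle livers. The treated groups had lowest, median and highest values of 235, 289 and 356 in T4, 255, 279 and 345 in T3 and 256, 312 and 347 CPM in T3+T4 livers. All 5 groups overlapped, and the log2 difference between vehicle and control was -0.13 (95% interval -0.34 to 0.08). Ugt2b34 fell from a control mean of 530.1 ± 33.1 CPM to a vehicle mean of 451.8 ± 29.6 (SD over 5 livers each, log2 fold change -0.23 ± 0.07, adjusted p = 0.0381 with edgeR). Removing any of control animals 42, 49 and 50 and vehicle animals 38, 67 and 2019 ended that call (highest adjusted p 0.114). Ugt2b37 fell from 10.8 ± 1.35 to 8.30 ± 1.11 CPM (-0.38 ± 0.12, adjusted p = 0.05, just under the threshold). The call was lost without control animal 42, 49 or 50, vehicle animal 37, 38, 55 or 67, T4 animal 40, 46, 58 or 70, T3 animal 62 or 64 or T3+T4 animal 72, 77, 80, 84 or 85 (adjusted p up to 0.156). After T3+T4 it was higher than in vehicle livers, at 10.9 ± 1.23 CPM (n = 7, 0.39 ± 0.12, adjusted p = 0.0194), a call lost without vehicle animal 67 (adjusted p up to 0.0752). Ugt2a3, Ugt2b1, Ugt2b5, Ugt2b35, Ugt2b36 and Ugt2b38 were not called in any comparison with edgeR over all livers. Ugt2b1 was higher after T3+T4 than after T4 in 5 other settings, among them the ceiling correction (0.36, adjusted p = 0.0387 with edgeR). With the library total as a covariate, Ugt2b5, Ugt2b34, Ugt2b36 and Ugt2b38 also passed there, at 0.18 to 0.35. The Ugt2b genes are close paralogs among which reads may be split.

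The Ugt3a pair on chromosome 15, whose enzymes use other sugar donors than UDP-glucuronate, was lower after T3. Ugt3a1 measured 48.4, 52.5, 53.5, 64.2 and 88.2 CPM in control and 66.7, 74.0, 74.8, 98.7 and 109 in vehicle livers. Treated livers had a lowest, median and highest value of 51.0, 77.8 and 98.8 in T4, 19.8, 46.5 and 66.8 in T3 and 27.2, 63.0 and 74.7 CPM in T3+T4 livers. T3 and vehicle livers just touched, with the highest T3 liver at the level of the lowest vehicle liver. Ugt3a1 fell 1.88-fold after T3 (-0.91 ± 0.23, adjusted p = 0.0168 with edgeR). Ugt3a2 averaged 348.3 ± 27.8 CPM (SD) in the 5 vehicle livers and fell to 249.8 ± 63.2 in the 6 T3 livers (-0.48 ± 0.13, adjusted p = 0.0252). Removing vehicle animal 37 or 55 ended that call (highest adjusted p 0.0691), as did a fit with sex as a covariate. Neither was called after T3+T4, and the difference between T3+T4 and T3 was not called for either.

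The sulfotransferase with the widest change was Sult5a1 (ENSMUSG00000000739, chromosome 8, 123140192 to 123158315), an orphan SULT whose substrates are not established. It measured 1.52, 1.69, 3.30, 5.27 and 12.2 CPM in control and 0.382, 0.606, 0.636, 0.730 and 1.10 in vehicle livers. For Sult5a1 the lowest, median and highest values were 0.459, 1.32 and 3.17 in T4, 4.36, 11.9 and 21.3 in T3 and 6.16, 15.5 and 49.8 CPM in T3+T4 livers. All 13 T3 and T3+T4 livers lay above all 13 vehicle and T4 livers. Sult5a1 was 6.66-fold lower in vehicle than in control livers (-2.73 ± 0.73, adjusted p = 0.0166 with edgeR), a call lost without control animal 49, the highest of its group (adjusted p = 0.0976). Against vehicle it rose 17.5-fold after T3 (4.13 ± 0.67, adjusted p = 0.000441) and 27.6-fold after T3+T4 (4.79 ± 0.66, adjusted p = 1.51e-05). The vehicle values include the 1 that was added to each count, and with 1 subtracted these log2 fold changes were 4.56 and 5.23. After T4 the log2 fold change was 1.18 (95% interval -0.38 to 2.74, adjusted p = 0.551), with T4 and vehicle livers overlapping. Between the treatments, Sult5a1 was lower after T4 than after T3 (-2.94 ± 0.50, adjusted p = 0.00303) and higher after T3+T4 than after T4 (3.61 ± 0.48, adjusted p = 2.69e-05). With sex as a covariate, the difference between T4 and T3 was -2.45 (adjusted p = 0.0775), T4 livers being mostly male and T3 livers mostly female. T3+T4 and T3 were not called apart (0.66, 95% interval -0.22 to 1.54).

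Sult1e1, which sulfates estrogens, rose after T3 in a pattern dominated by 1 liver. It measured 0.508, 0.811, 1.19, 1.72 and 3.49 CPM in control and 0.212, 0.382, 0.552, 1.01 and 1.82 in vehicle livers. The 6 T3 livers measured 0.746, 2.24, 3.02, 4.03, 8.70 and 96.8 CPM, the last being animal 61. Lowest, median and highest values were 0.524, 0.945 and 1.43 in T4 and 0.806, 1.01 and 5.11 CPM in T3+T4 livers. In 5 of the 6 T3 livers Sult1e1 stood above all vehicle and T4 livers, and 1 lay within them. The log2 fold change of T3 against vehicle was 4.54 ± 0.97 (adjusted p = 0.00509 with edgeR) and 2.16 without animal 61 (adjusted p = 0.0333). It was not called in a fit of these 2 groups alone. Sult1e1 was lower after T4 than after T3 (-4.40 ± 0.79, adjusted p = 0.0069), a difference that became -2.02 without T3 animal 61 (adjusted p = 0.106) and was not called either with sex as a covariate (adjusted p = 0.0779). T3+T4 against T3 gave -3.61 ± 0.76 with an adjusted p of 0.0537.

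**Figure D4:**
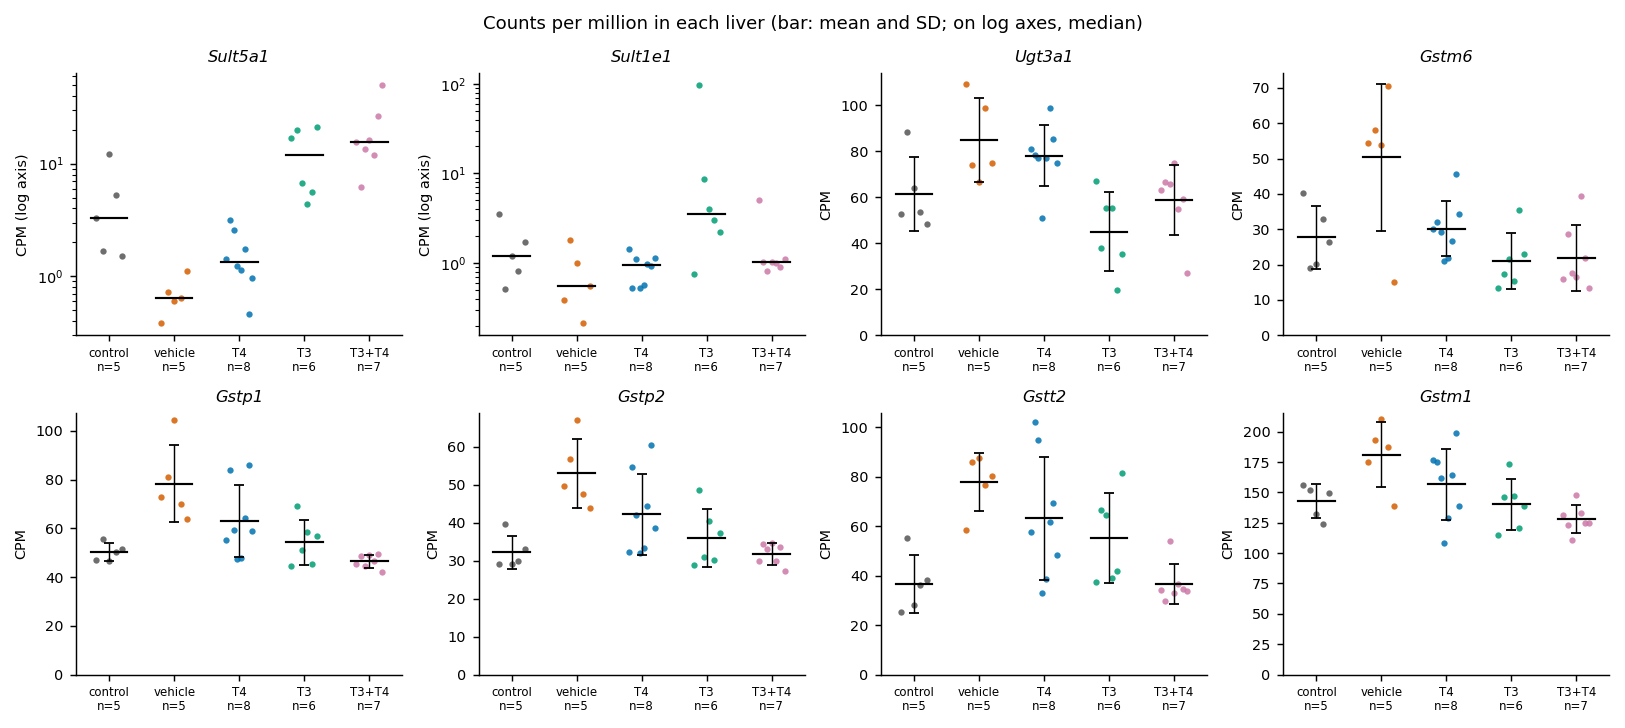
CPM in each liver for 8 members by group, with mean and SD as bars, or the median on the log axes of Sult5a1 and Sult1e1. T3 animal 61 stands at 96.8 CPM of Sult1e1, vehicle animal 67 at 15.1 CPM of Gstm6, and the T3+T4 livers of Gstp1 and Gstp2 lie below every vehicle liver.

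The Sult2a members sulfate hydroxysteroids and bile acids and form a cluster on chromosome 7. Sult2a1 (ENSMUSG00000078798, 13796246 to 13837409) measured 186, 208, 216, 221 and 225 CPM in control and 118, 121, 129, 139 and 143 in vehicle livers. In treated livers the lowest, median and highest values were 122, 171 and 187 in T4, 161, 182 and 208 in T3 and 155, 184 and 205 CPM in T3+T4 livers. Vehicle livers lay below all control, T3 and T3+T4 livers and overlapped with T4 livers. Sult2a1 fell 1.62-fold in vehicle livers (-0.70 ± 0.10, adjusted p = 4.54e-05 with edgeR) and rose after T3 (0.50 ± 0.10, adjusted p = 0.00233) and T3+T4 (0.48 ± 0.09, adjusted p = 0.000754). After T4 the log2 fold change was 0.32 ± 0.09 (95% interval 0.14 to 0.51, adjusted p = 0.0998), which passed with DESeq2 (adjusted p = 0.0376) and without T4 animal 71 (adjusted p = 0.0365). It was lower in T4 than in control livers (-0.37 ± 0.09, adjusted p = 0.0177), a call lost without control animal 49 or 50 (adjusted p up to 0.0726).

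Of the other Sult2a members, Sult2a5 and Sult2a4 were called and Sult2a2, Sult2a3 and Sult2a6 were not. Sult2a5 measured 139.4 ± 13.4 CPM in control, 95.3 ± 19.6 in vehicle, 95.0 ± 25.8 in T4, 115.9 ± 8.41 in T3 and 130.4 ± 13.4 in T3+T4 livers (SD). It fell in vehicle livers (-0.55 ± 0.16, adjusted p = 0.03 with edgeR) and rose after T3+T4 against vehicle (0.45 ± 0.15, adjusted p = 0.0393) and against T4 (0.46 ± 0.13, adjusted p = 0.0274). Sult2a4 measured 20.7 ± 2.34, 16.1 ± 2.34, 15.5 ± 2.55, 16.6 ± 1.2 and 19.8 ± 1.87 CPM in the same order. It fell in vehicle livers (-0.37 ± 0.12, adjusted p = 0.0486) and was higher after T3+T4 than after T4 (0.35 ± 0.10, adjusted p = 0.0202). Both were lower in T4 than in control livers (-0.55 ± 0.14 and -0.42 ± 0.11). The 3 calls of Sult2a5 against vehicle or control groups were each lost without at least 6 single libraries. For vehicle against control these were control animals 42, 49, 50 and 59 and vehicle animals 38, 67 and 2019 (adjusted p up to 0.0972), for T4 against control they were control animals 42, 49, 50 and 59 and T4 animals 43 and 71 (up to 0.0934), and for T3+T4 against vehicle they were vehicle animals 38, 67 and 2019 and T3+T4 animals 72, 79, 84 and 85 (up to 0.136). Sult2a5 after T3+T4 against T4 was lost without T4 animal 43, 46 or 71 or T3+T4 animal 72, 84 or 85 (up to 0.0662). Sult2a4 in vehicle livers was lost without control animal 42, 49, 50 or 59, vehicle animal 37, 38, 55 or 2019, T4 animal 40 or 69, T3 animal 64 or T3+T4 animal 77, 80 or 85 (up to 0.126). Sult2a4 in T4 against control was lost without control animal 42, 49, 50 or 59 or T4 animal 46 or 71 (up to 0.0969), and after T3+T4 against T4 without T3+T4 animal 72 (up to 0.0523). Sult2a2 measured 140.8 ± 10.9 CPM in control and 119.2 ± 6.92 in vehicle livers (-0.24, 95% interval -0.41 to -0.07, adjusted p = 0.0595), and passed in 8 of the other settings, among them the correction for the ceiling on counts. The Sult2a genes are close paralogs, so the split of reads among them is uncertain.

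The sulfotransferases of the SULT1 group other than Sult1e1 were not called in any comparison. Sult1a1, which sulfates phenols and iodothyronines, measured 195.1 ± 15.2, 201.5 ± 21.4, 186.0 ± 20.2, 196.2 ± 33.9 and 183.6 ± 12.8 CPM in control, vehicle, T4, T3 and T3+T4 livers (SD). Sult1d1, which sulfates catecholamines, ranged from a mean of 260.2 in T4 to 316.2 in T3 livers. Sult1b1, which also accepts iodothyronines, ranged from 42.6 in T3 to 54.0 in vehicle livers, and Sult1c2 from 34.7 in T3 to 47.5 in vehicle livers.

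Among the glutathione transferases, calls between vehicle and control livers were rises and calls after T3 or T3+T4 against vehicle were falls. In vehicle livers 4 of 19 GST members rose and 0 fell, after T3 3 fell and 0 rose, and after T3+T4 8 fell and 0 rose. Of all genes 4.92% rose in vehicle livers, 3.24% fell after T3 and 8.45% fell after T3+T4. All 3 comparisons share the same 5 vehicle livers, so their opposite signs are not independent. Gstp1 (ENSMUSG00000060803, chromosome 19, 4035407 to 4037985), a pi class transferase, measured 46.6, 47.2, 50.3, 51.6 and 55.5 CPM in control and 63.9, 69.8, 72.9, 81.0 and 104 in vehicle livers. Its lowest, median and highest values were 47.4, 59.1 and 86.1 in T4, 44.7, 54.0 and 69.2 in T3 and 41.9, 46.5 and 49.4 CPM in T3+T4 livers. Vehicle livers lay above all control and all T3+T4 livers. Gstp1 rose 1.56-fold in vehicle livers (0.64 ± 0.14, adjusted p = 0.00528 with edgeR) and fell after T3 (-0.53 ± 0.14, adjusted p = 0.0187) and T3+T4 (-0.75 ± 0.13, adjusted p = 0.000272). It was also lower after T3+T4 than after T4 (-0.44 ± 0.12, adjusted p = 0.0206). The T3 call was lost without vehicle animal 38 (adjusted p = 0.0776), and the call of T3+T4 against T4 without T4 animal 70 (adjusted p = 0.0567).

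Gstp2, its neighbour and near copy, measured 29.2, 29.2, 30.01, 33.0 and 39.6 CPM in control and 44.0, 47.5, 49.8, 56.9 and 67.1 in vehicle livers. For Gstp2 the lowest, median and highest values were 32.0, 40.3 and 60.6 in T4, 28.8, 34.1 and 48.6 in T3 and 27.2, 33.2 and 34.7 CPM in T3+T4 livers. As for Gstp1, vehicle livers lay above all control and all T3+T4 livers, and since both genes are near copies their values are not independent. Gstp2 rose by 0.72 ± 0.16 on the log2 scale in vehicle livers (adjusted p = 0.00496 with edgeR) and fell after T3 (-0.56 ± 0.15, adjusted p = 0.0254) and T3+T4 (-0.74 ± 0.15, adjusted p = 0.00102). Removing vehicle animal 37 or 38, or one of T3 animals 60 and 65, ended the T3 call (highest adjusted p 0.0859).

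Gstt2, a theta class transferase, measured 25.1, 28.2, 36.3, 38.1 and 55.3 CPM in control and 58.6, 76.8, 80.1, 85.9 and 87.7 in vehicle livers. Its lowest, median and highest values were 32.8, 59.7 and 102 in T4, 37.4, 53.2 and 81.4 in T3 and 29.9, 34.3 and 54.0 CPM in T3+T4 livers. Vehicle livers lay above all control and all T3+T4 livers, while T4 and T3 livers spread over both levels. Gstt2 rose 2.12-fold in vehicle livers (1.08 ± 0.27, adjusted p = 0.00938 with edgeR) and fell 2.12-fold after T3+T4 (-1.09 ± 0.24, adjusted p = 0.00252). It was lower after T3+T4 than after T4 (-0.78 ± 0.22, adjusted p = 0.0222), a call lost without T4 animal 43 or 46 (adjusted p up to 0.0542). Its neighbours Gstt1 and Gstt3 were not called in any comparison, and Gstt3 spread widely within groups, from 27.4 to 136 CPM in vehicle livers.

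Of the mu class members, which lie together on chromosome 3, Gstm6, Gstm1 and Gstm7 were called against vehicle. Gstm6 measured 19.0, 20.1, 26.3, 32.9 and 40.4 CPM in control and 15.1, 53.7, 54.4, 58.2 and 70.4 in vehicle livers. Its lowest, median and highest values were 21.1, 29.5 and 45.7 in T4, 13.4, 19.5 and 35.5 in T3 and 13.2, 17.7 and 39.4 CPM in T3+T4 livers. Apart from animal 67, the vehicle livers lay above all others. Gstm6 was not called between vehicle and control livers, but without animal 67 it was higher in vehicle livers (1.09, adjusted p = 0.0161 with edgeR). Gstm6 fell after T3 (-1.25 ± 0.30, adjusted p = 0.0123 with edgeR) and T3+T4 (-1.20 ± 0.29, adjusted p = 0.00516). Gstm1 measured 124, 132, 150, 152 and 156 CPM in control and 139, 175, 187, 194 and 211 in vehicle livers. Its lowest, median and highest values were 109, 163 and 199 in T4, 115, 142 and 174 in T3 and 111, 125 and 148 CPM in T3+T4 livers. Of the vehicle livers only animal 67 lay within the T3+T4 range. Gstm1 fell after T3+T4 (-0.50 ± 0.12, adjusted p = 0.00428). It too was called higher in vehicle than in control livers only without animal 67 (0.42, adjusted p = 0.0435 with edgeR). Gstm7 averaged 90.5 ± 6.09 CPM (SD) in the 5 vehicle livers and fell to 68.3 ± 8.58 in the 7 T3+T4 livers (-0.41 ± 0.13, adjusted p = 0.0286), a call ended by removing any of vehicle animals 37 and 55 and T3+T4 animals 78 and 84 (highest adjusted p 0.0651). Gstm2, Gstm3, Gstm4 and Gstm5 were not called in any comparison, and reads of these close paralogs may be split among them.

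The remaining called GST members were Gsta2 and Gstz1. Gsta2, an alpha class member, measured 2.74 ± 1.56 CPM in control and 10.1 ± 9.47 in vehicle livers (SD, n = 5 each), a rise of 1.87 ± 0.57 on the log2 scale (adjusted p = 0.0357 with edgeR). After T3+T4 it stood at 2.54 ± 1.46 CPM (n = 7, -1.97 ± 0.51, adjusted p = 0.00815). The vehicle livers ranged from 1.47 to 24.3 CPM, and the 2 calls did not hold without vehicle animal 37 (highest adjusted p 0.165 and 0.0769), the first also without control animal 42, 49 or 50 or vehicle animal 38. Gstz1 fell from 333.3 ± 21.5 CPM in vehicle to 285.1 ± 22.4 after T3+T4 (-0.23 ± 0.07, adjusted p = 0.023), a call lost without vehicle animal 55 or T3+T4 animal 78 or 84 (adjusted p up to 0.0763). With the library total as a covariate its log2 fold change was -0.01 (adjusted p = 0.955). Totals reached at most 5625282 counts in vehicle and at least 5531724 in T3+T4 libraries. Such a fit can hardly tell depth from treatment, and the cause was not tested. Gsta1, Gsta3, Gsta4, Gstk1 and Gsto1 were not called in any comparison with edgeR over all livers.

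T4 alone and T3 alone differed in 2 members, Sult5a1 and Sult1e1, both lower after T4 (0.551% of all genes were called, 0.158% higher and 0.393% lower). T3+T4 against T4 gave 7 calls (14.9%, against 8.61% of all genes, 4.06% higher and 4.55% lower). Sult5a1, Ugt1a5, Sult2a4 and Sult2a5 were higher and Gstp1, Gstt2 and Ugt1a9 lower, and with the library total as a covariate 12 were higher and 0 lower. T3+T4 against T3 gave 0 calls with edgeR (0.0117% of all genes), with 12 members at an unadjusted p under 0.05 (12.7% of all genes) and 2 called by DESeq2 (0.909% of all genes), Ugt1a5 and Sult1e1. T4 against control gave 4 calls (3.54% of all genes, 1.83% higher and 1.71% lower), with Ugt1a9 higher and Sult2a1, Sult2a4 and Sult2a5 lower. T3 against control gave 0 with edgeR (0.211% of all genes, 0.17% higher and 0.041% lower), with 15 at an unadjusted p under 0.05 (17.4% of all genes) and 1, Sult1e1, called by DESeq2 (1.98%). T3+T4 against control gave 0 with both tools (0% and 0.293% of all genes), with 7 at an unadjusted p under 0.05 (7.19% of all genes). A p that misses the threshold does not show that treated and control livers were alike. For Sult5a1 the log2 difference of T3+T4 from control was 2.05 (95% interval 1.02 to 3.09), and for Ugt1a9 it was 0.25 (-0.46 to 0.96).

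Within the T3 group, livers low in Ugt1a9 were those high in Sult5a1. Animals 60, 61 and 68 measured 10.7, 10.7 and 6.89 CPM of Ugt1a9 and 17.0, 20.1 and 21.3 CPM of Sult5a1. Animals 62, 64 and 65 measured 47.6, 36.6 and 36.7 CPM of Ugt1a9 and 6.77, 4.36 and 5.59 CPM of Sult5a1. Dio1, itself a thyroid hormone target, measured 188, 114 and 203 CPM in the first 3 animals and 60.2, 110 and 134 in the others. In the T3+T4 group the liver with the lowest Ugt1a9 (animal 84, 10.9 CPM) and the next lowest (animal 85, 16.9) had the highest Sult5a1 values (26.4 and 49.8 CPM). This opposition was seen in the livers and was not tested, because the animals were not grouped by it in the design.

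**Figure D5:**
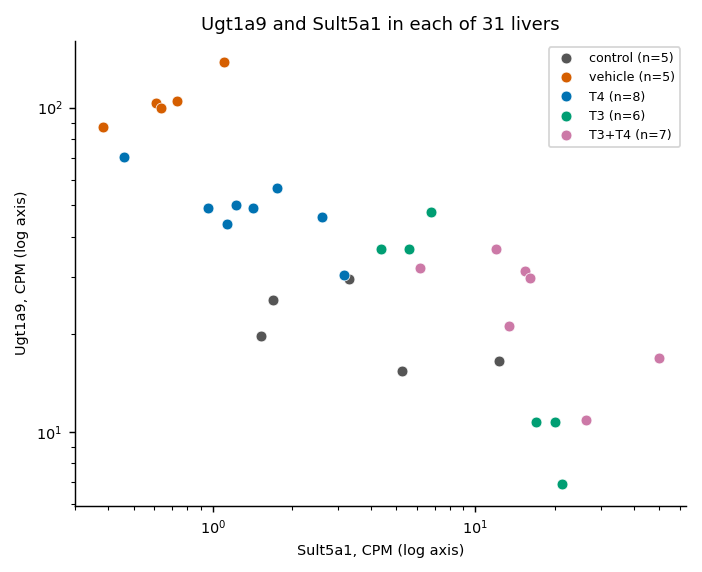
CPM of Ugt1a9 against Sult5a1 in each of the 31 livers, coloured by group, on log axes. Vehicle livers lie at the upper left, T3+T4 livers at the lower right, and the T3 livers fall into 3 with Ugt1a9 under 11 CPM and 3 above 36 CPM.

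For the genes that supply the cofactors of these enzymes, counts are set beside the shares of all genes called, which were 9.63% in vehicle against control, 0.41% after T4, 6.77% after T3 and 15.8% after T3+T4. Of 16 such genes tested, 1 rose and 1 fell in vehicle livers (median log2 fold change 0.03, against 0.01 over all genes), 0 were called after T4, 1 rose and 1 fell after T3, and 2 rose and 1 fell after T3+T4. Papss2, which makes the sulfate donor PAPS, averaged 448 ± 28.5 CPM in control livers and fell to 347 ± 29.9 in vehicle livers (SD over 5 livers each, adjusted p = 0.0169 with edgeR) and rose to 429 ± 51.8 after T3 (adjusted p = 0.0477) and 442 ± 59.4 after T3+T4 (adjusted p = 0.00923). Ugp2, which makes UDP-glucose on the way to UDP-glucuronate, rose from 328 ± 21.7 to 397 ± 56.9 CPM in vehicle livers (adjusted p = 0.0332) and fell to 301 ± 21.4 after T3 (adjusted p = 0.00272) and 299 ± 22.4 after T3+T4 (adjusted p = 0.000531). Bpnt1, which clears the spent sulfate donor, rose after T3+T4 (0.22 ± 0.07).

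Of 23 other conjugating and deconjugating enzymes tested, 5 rose and 2 fell in vehicle livers, 0 were called after T4, 1 rose and 2 fell after T3, and 2 rose and 6 fell after T3+T4 (median log2 fold changes 0.06, -0.08, -0.12 and -0.14). Of all genes 9.63%, 0.41%, 6.77% and 15.8% were called in the same 4 comparisons, which share the 5 vehicle livers. Glyat, a glycine conjugating enzyme, and the sulfatase Arsa rose in vehicle livers (0.30 ± 0.07 and 0.59 ± 0.15), while the sulfatase Arsb and the acetyltransferase Nat8 fell (-0.64 ± 0.16 and -1.37 ± 0.36). After T3, the methyltransferase Inmt (-0.65 ± 0.15) and Acsm3, a medium-chain acyl-CoA synthetase (-0.40 ± 0.12), fell and Nat8 rose (1.12 ± 0.35). After T3+T4, Nat8 (1.46 ± 0.34) and Arsb (0.60 ± 0.15) rose, and the microsomal glutathione transferase Mgst2 (-1.51 ± 0.40) and Inmt (-0.52 ± 0.15) fell.

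Among 17 tested receptors and regulators of these enzyme families, 0 rose and 2 fell in vehicle livers, 0 were called after T4, 1 rose after T3, and 1 rose and 2 fell after T3+T4. Of all genes 9.63%, 0.41%, 6.77% and 15.8% were called, so these counts show nothing particular to the list. Esr1, the estrogen receptor, fell from 178 ± 18.6 CPM in control to 80.2 ± 15.7 in vehicle livers (adjusted p = 2.94e-06 with edgeR) and rose to 165 ± 22.6 after T3 and 196 ± 24.0 after T3+T4. Esr1 was also lower after T4 than after T3 (-0.57 ± 0.11, adjusted p = 0.0138). The glucocorticoid receptor gene Nr3c1 fell in vehicle livers (-0.26 ± 0.09). Nr1i3, the gene of the xenobiotic receptor CAR, fell after T3+T4 (-0.51 ± 0.12), as did Arnt, the partner of the aryl hydrocarbon receptor (-0.23 ± 0.07). The genes of the aryl hydrocarbon receptor, PXR and NRF2 (Ahr, Nr1i2 and Nfe2l2) were not called in vehicle livers (log2 differences -0.05, 0.23 and 0.17).

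Of 20 targets of NRF2, AHR, CAR or PXR outside the 3 families, 1 rose and 3 fell in vehicle livers, 0 were called after T4, 3 rose and 2 fell after T3, and 3 rose and 5 fell after T3+T4, where 9.63%, 0.41%, 6.77% and 15.8% of all genes were called. Abcc3, which exports glucuronides from hepatocytes into blood, averaged 109 ± 35.5 CPM in control livers and rose to 364 ± 63.8 in vehicle livers (SD over 5 livers each, 1.74 ± 0.26, adjusted p = 9.35e-05 with edgeR). It fell to 112 ± 36.3 after T3 (-1.70 ± 0.25) and 82.4 ± 19.6 after T3+T4 (-2.14 ± 0.24). The cytochrome P450 genes Cyp3a16 (-1.95 ± 0.33) and Cyp3a41a (-2.52 ± 0.50) and the cystine carrier Slc7a11 (-0.68 ± 0.17) fell in vehicle livers. Livers varied widely for both P450 genes. Cyp3a16 averaged 239 ± 21.6 CPM (SD) in control and 61.4 ± 66.0 in vehicle livers, and Cyp3a41a 81.5 ± 45.8 and 14.2 ± 2.96. Cyp3a16 and Cyp3a41a rose after T3 (1.82 ± 0.32 and 2.74 ± 0.49) and T3+T4 (1.81 ± 0.31 and 2.37 ± 0.48), and Cyp3a11 fell after both (-0.34 ± 0.09 and -0.35 ± 0.09).

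Several calls depended on which livers entered the fit. Among the animals numbered 54 to 85, 0 members were called between vehicle and control, only Ugt1a9 between T3 and vehicle, and 5 between T3+T4 and vehicle, among them Ugt1a9, Sult5a1, Sult2a1 and Gstt2. With 1 control and 2 vehicle livers left, log2 differences between vehicle and control were 2.57 for Ugt1a9, -0.81 for Sult2a1, 1.02 for Gstt2, 0.35 for Gstp1 and -0.79 for Sult5a1, and Sult5a1 stood at 3.81 and Sult2a1 at 0.57 after T3. The first 3 and the last 2 were about as large as over all livers, while those of Gstp1 and Sult5a1 were smaller. Without the libraries in which acinar or muscle markers averaged at least 5 CPM, the calls between vehicle and control that remained were Ugt1a9, Sult2a1, Gstt2 and Gstp2, those after T3 were Sult5a1, Sult2a1 and Ugt3a1, and those after T3+T4 were Ugt1a9, Ugt1a5, Sult5a1, Sult2a1 and Gstt2. A fit of vehicle and T3 livers alone kept Ugt1a9, Sult5a1 and Sult2a1 of the 9. With the library total as a covariate, Gstm6, Gstp1, Gstp2 and Ugt3a2 were not called after T3, nor Gstm1, Gstm6, Gstm7, Gstz1 and Ugt2b37 after T3+T4.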

How the data were processed

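Liver RNA of 31 pups was extracted with TRIzol and entered a TruSeq stranded mRNA kit, per the labels' protocols. The table deposited by the authors holds whole-number counts per gene. Its lowest value is 1 in every library and 50.1% of values are 1, so 1 appears to have been added to each count at a step not given in the sources used here. BWA 0.7.10, Trimmomatic, DESeq and bcl2fastq are listed without roles in the submitters' processing notes, with the build GRCh38, while the file headers state mm10. The counting tool, its use of strand, the treatment of duplicate reads and the annotation are not given in the sources used here. Depth was 4383769 to 7158919 counts, so by the library total 1 count is worth 0.14 to 0.228 CPM.

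Groups followed the labels, and no 2 libraries were identical. The threshold of 1 CPM, the levels given next to it and the alternative filter at 5 CPM used the deposited count scaled to the library total. Other levels in CPM were scaled to the library's total over the genes tested times its TMM factor. Counts were scaled by TMM, reduced by filterByExpr to 17057 genes, and compared in R 4.3.3 by edgeR 4.0.16 (glmQLFit and glmQLFTest, 1 mean per group over all 31 libraries), for 10 pairwise comparisons and 1 test of all 5 groups. Adjusted p-values are Benjamini-Hochberg over all genes tested, with calls under 0.05, and the code was tested on simulated data. The members and lists were chosen with earlier results of these data known. Every member is named with its level. Values in every library (for groups over 5 livers, the lowest, median and highest) are given for up to 6 called members with the smallest adjusted p in vehicle against control, each treatment against vehicle and T4 against T3, and for the highest member per kb of each family. Up to 4 called genes per list and comparison are named, and others were chosen after their values were seen. Positions and exon lengths came from GENCODE M21 (97.3% of IDs matched, all 48 members) and promoters from RefSeq.

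Alternatives were DESeq2 1.42.0, its size factors, the library total alone, no filter (genes above the lowest value in any library), a mean of at least 5 CPM, the compared groups alone, sex or log2 library total as a covariate, animals 54 to 85 only, no acinar- or muscle-bearing libraries, 1 subtracted from each count, counts corrected for levelling off at 2 per exonic base, and each library left out.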

Additional observations from a re-analysis of the deposited data

Results flagged for a closer look

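Single livers stood apart from the rest of their group for 7 members, where the gap to the nearest liver took most of the group's range by Dixon's 95% limit. Of 100 groups examined 9 had such a liver, and chance alone flags about 1 in 20, or 5 of 100. These 100 groups did not cover all 48 members in each of the 5 groups, so the 7 are not a count over all members. Gsta1 in T3+T4 animal 78, at 19.6 CPM against a group median of 0.834, is not among them. Sult1e1 stood at 96.8 CPM in T3 animal 61, against 0.746 to 8.70 in the other T3 livers, and at 5.11 in T3+T4 animal 72, against 0.806 to 1.10. Ugt1a5 stood at 4.07 CPM in T4 animal 40, against 0.378 to 2.12. T3+T4 animal 78 was high in Gstt2, at 54.0 CPM against 29.9 to 36.7, and in Ugt1a7c, at 5.24 against 0.919 to 2.24. Ugt3a1 stood low in T3+T4 animal 85, at 27.2 CPM against 55.1 to 74.7. Control animal 47 was low in Gstz1, at 294 CPM against 323 to 333, and in Sult2a5, at 116 against 143 to 149. Gstz1 stood high in T3 animal 62, at 339 CPM against 259 to 285.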

How the results depend on the processing

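Of 48 calls of a member in a comparison, 23 held whichever library was left out, 5 held in every setting run, and 0 reversed. The 5 were Sult5a1, Gstt2, Sult2a1 and Ugt1a9 in T3+T4 against vehicle and Sult5a1 in T3+T4 against T4. Counts of calls that moved by over 1.5 times were as follows, with the cause not tested. With animals 54 to 85 only, vehicle against control gave 0 in place of 12, T3 against vehicle 1 in place of 9, T3+T4 against vehicle 5 in place of 14, T4 against T3 1 in place of 2, T3+T4 against T4 3 in place of 7, T4 against control 0 in place of 4 and the 5 groups 4 in place of 17. This setting leaves 1 control and 2 vehicle livers, and the lone control is assumed to vary like the other groups. Without acinar- or muscle-bearing libraries the counts were 4, 3, 5, 0, 2, 1 and 6 in the same order. In fits of the compared groups alone, T4 against vehicle gave 1, T3 against vehicle 3, T4 against T3 1 and T4 against control 2. DESeq2 gave 2 in T4 against vehicle, 2 in T3+T4 against T3 and 1 in T3 against control. With log2 library total as a covariate, T4 against vehicle gave 1, T4 against T3 1, T3+T4 against T4 12, T3+T4 against T3 2 and T4 against control 7. T4 against vehicle gave 1 with the library total alone, T4 against T3 gave 1 at a mean of at least 5 CPM and 0 with sex as a covariate, and T3+T4 against T3 gave 2 with the ceiling correction.

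With 1 library left out, calls ranged from 5 to 13 in vehicle against control (control animals 42, 49 and 50 gave 6, 5 and 7, vehicle animal 38 gave 7), 0 to 1 in T4 against vehicle (T4 animal 71), 7 to 12 in T3 against vehicle and 12 to 15 in T3+T4 against vehicle. The range was 1 to 5 in T4 against T3 (T3 animals 61 and 62), 4 to 9 in T3+T4 against T4 (4 without T4 animal 46 or T3+T4 animal 72), 0 to 2 in T3+T4 against T3, 0 to 5 in T4 against control (0 without control animal 49 or 50), 0 to 2 in T3 against control (2 without T3 animal 62), 0 to 0 in T3+T4 against control and 11 to 20 over the 5 groups (11 without vehicle animal 55). No paired analysis was possible because the animal numbers of the groups do not overlap. After subtraction of 1 from every count 47 members, not 48, reached 1 CPM. Levels under about 1 CPM rest on few counts.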

Other observations

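Gsta1, an alpha class transferase called in no comparison with edgeR, measured 15.5 CPM in vehicle animal 37 and 19.6 in T3+T4 animal 78, against at most 5.42 in every other liver. DESeq2 called it higher in vehicle than in control livers (log2 fold change 2.86, adjusted p = 0.0342), with animal 37 among the vehicle livers. In the same 5-group order of control, vehicle, T4, T3 and T3+T4, Ugt1a10, just under the threshold of 1 CPM, averaged 0.490, 1.61, 1.10, 0.920 and 0.875 CPM.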
